A study of Homo sapiens with 9 samples.

Results

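The genes examined here store, import, export or recycle iron and heme, and were found by symbol in the deposited expression table. They are FTL, FTH1, HMOX1, BLVRA, BLVRB, TFRC, SLC40A1, SLC48A1, ABCB6 and ALAS1, 10 of 41041 listed genes. Poly(A) RNA was sequenced from SW480, an established human colorectal cancer line, in 9 libraries of 3 groups with 3 biological replicates each. All groups spent 48 h at 1% oxygen. One group received sulforaphane together with 5-fluorouracil (SFN+5-FU), one received sulforaphane alone at 25 µM (SFN), and one was left without compound (control). Sulforaphane is an isothiocyanate from cruciferous vegetables and 5-fluorouracil is a pyrimidine analogue used against colorectal cancer. For the combined group, the sources used here give no doses. No normoxic cells and no cells on 5-fluorouracil alone were analysed here, so each difference below is one between hypoxic cells.

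Iron enters most cells on transferrin through the transferrin receptor, is stored inside ferritin shells built from light (FTL) and heavy (FTH1) chains, and leaves through ferroportin (SLC40A1). Heme is made in a pathway that starts with ALAS1. Heme oxygenase (HMOX1 when induced) breaks heme down to iron, carbon monoxide and biliverdin, which the biliverdin reductase BLVRA reduces. Iron regulatory proteins bind RNA hairpins called iron-responsive elements when iron is scarce. Bound in the 5′ UTR, as in the ferritin mRNAs, they block translation, and bound in the 3′ UTR, as in TFRC mRNA, they protect the transcript from decay. Sulforaphane is a known activator of NRF2, a factor that raises transcription of the ferritin genes and HMOX1, and BACH1 represses HMOX1.

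The hairpins are shown because they separate transcripts whose amount iron is known to set from those whose translation it sets. A search of the GENCODE release 29 transcripts (GRCh38) for a C, any 5 bases, CAGTG followed by A, C or T, and 5 bases able to pair with the first 5 found matches in 4 of the 10 genes. At least 1 match lay in some transcript of 206 of 10905 tested protein-coding genes (1.89%). Capitals mark the hairpin loop, and each sequence is written 5′ to 3′ on the transcript strand as DNA. The ferritin elements lie in the 5′ UTR, that of FTL at chr19:48965335-48965363 on the plus strand and that of FTH1 at chr11:61967574-61967602 on the minus strand, and they are equal at 26 of 29 bases.
FTL: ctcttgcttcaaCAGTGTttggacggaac
FTH1: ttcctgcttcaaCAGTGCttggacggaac
The ferroportin element is also in the 5′ UTR, at chr2:189580661-189580689 on the minus strand. It was found in 1 of 5 annotated coding transcripts of SLC40A1, where the ferritin elements were found in 1 of 1 for FTL and 7 of 10 for FTH1.
SLC40A1: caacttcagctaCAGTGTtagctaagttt
TFRC had 4 matches, all in its 3′ UTR on the minus strand, at chr3:196050979-196051007, chr3:196050575-196050603, chr3:196050510-196050538 and chr3:196050463-196050491 in the order of the transcript. Each was found in 3 of 5 annotated coding transcripts.
TFRC 3′ UTR, a: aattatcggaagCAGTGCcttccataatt
TFRC 3′ UTR, b: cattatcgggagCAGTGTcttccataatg
TFRC 3′ UTR, c: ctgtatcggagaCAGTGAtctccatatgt
TFRC 3′ UTR, d: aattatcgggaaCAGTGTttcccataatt
The 250 bases before the start site were searched on both strands in RefSeq promoter sequences (GRCh38.p14). These held 8 of the 10 genes and lacked FTH1 and HMOX1. The letters ACGTG, the core of the element bound by hypoxia-inducible factors, were in 3 of the 8 (ABCB6, FTL and TFRC) and in 18.5% of 35114 promoters. The letters TGACNNNGC, the core of the element bound by NRF2, were in ABCB6 alone of the 8, where they overlap ACGTG, and in 10.9% of all promoters. The matches in FTL and TFRC reach bases that GENCODE annotates as exon. The ABCB6 stretch, clear of annotated exons, begins 156 bases before the start site and is shown with its flanks at chr2:219219094-219219122 on the minus strand, with both motifs in capitals.
ABCB6 promoter: gccctgggCACGTGACCAAGCcggctctg
These matches describe letters and do not show binding. The promoters of FTH1 and HMOX1, and bases more than 250 before a start site, were not searched for either motif.

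Levels are in FPKM, fragments scaled to gene length and to the size of the library, so they may be compared between genes. FPKM summed to 259184 to 272235 per library, and the number of fragments behind it is unknown. The library labelled SFN replicate 2 correlated at 0.993 with each SFN+5-FU library across tested genes, and at 0.963 and 0.968 with SFN replicates 1 and 3, which correlated with each other at 0.990. It was kept in its labelled group, and whether its label is right was not tested. Values without it are given beside the results it moves. Of 8 markers of colorectal epithelium 7 averaged at least 1 FPKM, and CEACAM5 did not. Their summed level was 1707 to 1722 FPKM with SFN+5-FU, 1767 to 2382 FPKM with SFN and 2552 to 2595 FPKM in control. KRT8, KRT18 and KRT19 were the most abundant of the 8 and weigh most in this sum. EPCAM overlapped between all groups, at means of 122, 133 and 129 FPKM with SFN+5-FU, with SFN and in control. Of the 7 tested markers 4 were called lower with SFN and 6 with SFN+5-FU, beside 22.5% and 28.0% of all tested genes. Of 10 measured markers of blood, stromal, endothelial and erythroid cells, 3 averaged at least 1 FPKM (CD68, COL1A1 and HBA1) and PTPRC was at 0 in every library. Their sum was 8.21 to 13.7 FPKM with SFN+5-FU, 5.25 to 8.36 FPKM with SFN and 3.67 to 4.63 FPKM in control. Its members moved opposite ways: CD68, a lysosomal protein gene of macrophages, averaged 7.49 ± 1.73 FPKM with SFN+5-FU, 3.95 ± 1.78 FPKM with SFN and 0.563 ± 0.0723 FPKM in control (SD, n = 3 each). COL1A1, a collagen gene, averaged 0.720 ± 0.0346 FPKM with SFN+5-FU, 0.610 ± 0.0529 FPKM with SFN and 1.75 ± 0.222 FPKM in control. The part of these marker shifts in the results below was not tested, and in bulk RNA fewer cells of a kind and less RNA per cell cannot be told apart.

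Iron and heme transcripts moved in opposing directions. With SFN, FTL, TFRC and ALAS1 rose and BLVRA, SLC48A1 and ABCB6 fell, while FTH1, HMOX1 and BLVRB did not pass the test. With SFN+5-FU all 9 tested genes passed, with FTH1, HMOX1 and BLVRB also higher than control. A gene was tested if its mean over the 9 libraries was at least 1 FPKM, which SLC40A1 did not reach, and called at an adjusted p of 0.05 in limma on log2(FPKM + 1). Over all 12662 tested genes 50.0% were called for SFN against control and 66.2% for SFN+5-FU against control, so being called does not set these genes apart. The median log2 fold change of the 9 genes was 0.11 with SFN and 0.44 with SFN+5-FU, beside 0.05 and 0.10 over all tested genes. Both comparisons share the 3 control libraries, and their values below are therefore not independent. Without SFN replicate 2 the 9 genes were called as before, 3 higher and 3 lower with SFN, beside 56.9% of all tested genes called (30.0% higher and 26.9% lower), and 6 higher and 3 lower with SFN+5-FU, beside 74.7% (43.4% higher and 31.3% lower). Leaving out SFN+5-FU replicate 3 left 5 of the 9 called in the combined comparison (4 higher and 1 lower), beside 59.4% of all tested genes (34.4% higher and 25.0% lower), and HMOX1, BLVRB, SLC48A1 and ABCB6 lost their calls.

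**Figure D1:**
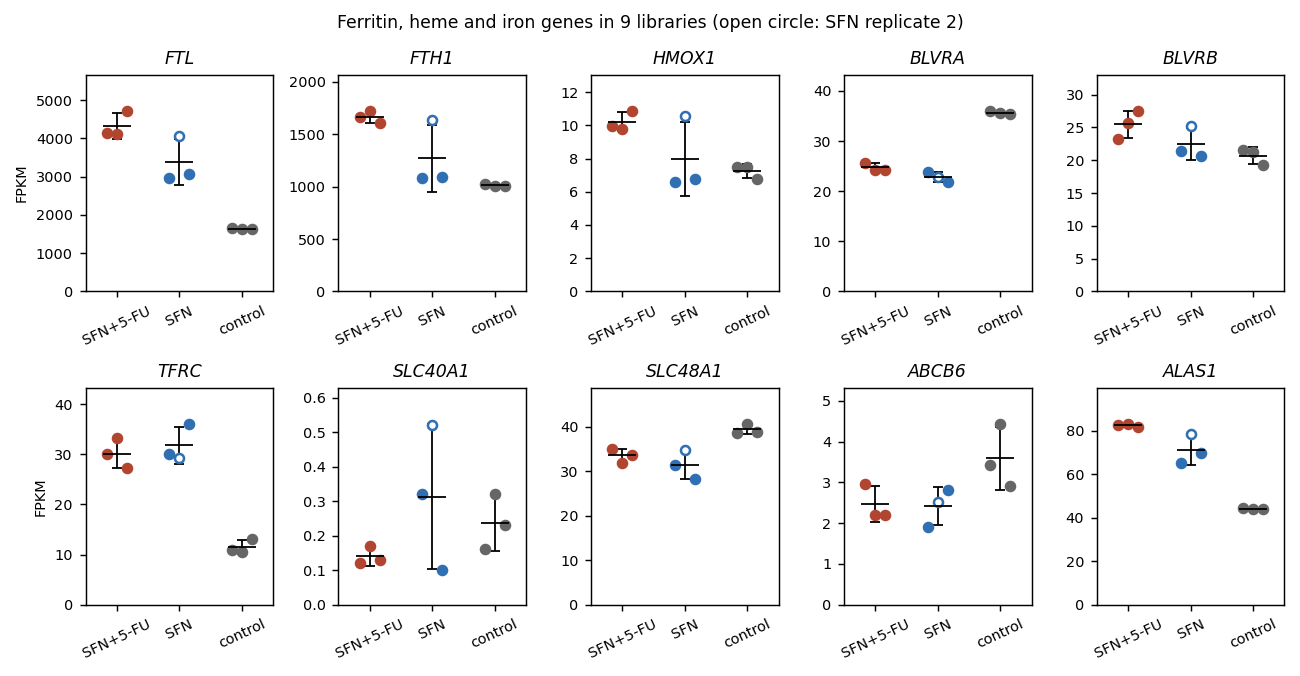
FPKM (vertical axis, from 0) of each of the 10 genes in the SFN+5-FU, SFN and control libraries; points are libraries, horizontal bars are group means and whiskers are SD (n = 3). The open circle is SFN replicate 2, which sits at the level of the SFN+5-FU libraries for FTH1 (1639 FPKM) and HMOX1 (10.5 FPKM).

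Ferritin light chain, which promotes mineralisation of the iron core, was the most abundant transcript of the set. FTL (ENSG00000087086) was at 4149, 4121 and 4726 FPKM with SFN+5-FU, at 2979, 4068 and 3079 FPKM with SFN, and at 1649, 1623 and 1623 FPKM in control. No treated library overlapped a control library, and SFN replicate 2 stood above the other SFN libraries. FTL was the 3rd most abundant of all listed genes in each SFN+5-FU library, against 14th or 15th in the control libraries, and made up 1.57% to 1.77% of the summed FPKM with SFN+5-FU and 0.602% to 0.619% in control. It rose with SFN by 1.03 on the log2 scale (SE 0.115, adjusted p = 0.000147), and by 0.89 without SFN replicate 2. With SFN+5-FU the rise was 1.41 (SE 0.115, adjusted p = 1.95e-05).

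Ferritin heavy chain, which carries the ferroxidase centre, followed a different course. FTH1 (ENSG00000167996) was at 1667, 1722 and 1602 FPKM with SFN+5-FU, at 1081, 1639 and 1091 FPKM with SFN, and at 1022, 1009 and 1010 FPKM in control. SFN replicates 1 and 3 lay just above the control libraries, and SFN replicate 2 lay among the SFN+5-FU libraries. The log2 fold change of FTH1 with SFN was 0.30 (SE 0.140, adjusted p = 0.106, 95% interval -0.02 to 0.61). It was 0.10 without SFN replicate 2, and past the threshold without SFN replicate 1 (0.40, adjusted p = 0.0446). With SFN+5-FU it rose by 0.71 (SE 0.140, adjusted p = 0.00177).

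The ratio of FTL to FTH1 within a library, which no scaling of libraries can change, was 2.49, 2.39 and 2.95 with SFN+5-FU, 2.75, 2.48 and 2.82 with SFN, and 1.61, 1.61 and 1.61 in control. Treated libraries were all above control libraries, and the treated groups overlapped each other. The mean log2 ratio was higher by 0.74 with SFN and by 0.69 with SFN+5-FU than in control (two-sided exact permutation test, p = 0.10 in each, the smallest that 3 against 3 libraries allow). Between SFN+5-FU and SFN the log2 ratio differed by -0.05 (exact permutation p = 0.90). Ferritin pseudogenes are near-copies that can take or lend reads: the 19 listed for FTH1 summed to 2.23% to 3.02% of the FPKM of FTH1, and the 7 listed for FTL to 0.134% to 0.201% of that of FTL. Reads of the parents and copies cannot be told apart with certainty.

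TFRC, the transferrin receptor that imports iron, had the largest fold change of the 9 genes with SFN. TFRC (ENSG00000072274) was at 30.1, 33.2 and 27.2 FPKM with SFN+5-FU, at 30.1, 29.2 and 36.1 FPKM with SFN, and at 10.8, 10.5 and 13.1 FPKM in control. Both treated groups lay well above control and overlapped each other, and SFN replicate 2 did not stand apart. TFRC rose by 1.39 on the log2 scale with SFN (SE 0.112, adjusted p = 3.30e-05) and by 1.32 with SFN+5-FU (SE 0.112, adjusted p = 2.31e-05). Transcripts for iron import (TFRC) and for iron storage (FTL) were both higher in both treated groups. These are mRNA levels, and neither ferritin protein nor iron was measured.

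Ferroportin, the iron exporter, was close to the floor of the table. SLC40A1 (ENSG00000138449) was at 0.12, 0.17 and 0.13 FPKM with SFN+5-FU, at 0.32, 0.52 and 0.10 FPKM with SFN, and at 0.16, 0.32 and 0.23 FPKM in control. All groups overlapped. With no expression filter its log2 fold changes against control were 0.08 with SFN (adjusted p = 0.696) and -0.12 with SFN+5-FU (adjusted p = 0.490), and the added pseudocount of 1 compresses changes at this level.

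ALAS1, the rate-limiting first enzyme of heme synthesis outside erythroid cells, was higher in both treated groups. ALAS1 (ENSG00000023330) was at 82.5, 83.0 and 81.8 FPKM with SFN+5-FU, at 65.0, 78.5 and 69.7 FPKM with SFN, and at 44.5, 44.0 and 43.9 FPKM in control. The 3 groups did not overlap one another, with SFN+5-FU highest. ALAS1 rose by 0.67 on the log2 scale with SFN (SE 0.0702, adjusted p = 0.000112) and by 0.89 with SFN+5-FU (SE 0.0702, adjusted p = 1.81e-05). The erythroid gene ALAS2 was at 0.00 to 0.08 FPKM in all libraries.

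Of the genes for heme breakdown, HMOX1 was low and BLVRA fell. HMOX1 (ENSG00000100292), the inducible heme oxygenase, was at 9.98, 9.78 and 10.9 FPKM with SFN+5-FU, at 6.58, 10.5 and 6.76 FPKM with SFN, and at 7.49, 7.50 and 6.74 FPKM in control. SFN replicate 1 lay below the control range, SFN replicate 3 within it, and SFN replicate 2 among the SFN+5-FU libraries. With SFN its log2 fold change was 0.09 (SE 0.147, adjusted p = 0.616, 95% interval -0.24 to 0.42), and -0.10 without SFN replicate 2 (adjusted p = 0.225). With SFN+5-FU it rose by 0.44 (SE 0.147, adjusted p = 0.0235). Without the filter on low genes it did not pass (adjusted p = 0.0598), nor with mitochondrial transcripts left out (0.0502), nor without control replicate 3, SFN+5-FU replicate 1 or SFN+5-FU replicate 3 (adjusted p = 0.0740, 0.0505 and 0.0748, over alternatives from 0.000101). HMOX2, the constitutive heme oxygenase and not one of the 10 genes, stood at 2.33 to 2.55 times the FPKM of HMOX1 with SFN+5-FU, 2.23 to 3.24 times with SFN and 1.85 to 2.25 times in control. HMOX2 rose by 0.58 with SFN (adjusted p = 0.000128) and by 0.76 with SFN+5-FU (adjusted p = 2.01e-05).

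BLVRA, which reduces the biliverdin made by heme oxygenase, was lower in every treated library. BLVRA (ENSG00000106605) was at 25.7, 24.2 and 24.3 FPKM with SFN+5-FU, at 23.8, 22.9 and 21.9 FPKM with SFN, and at 36.1, 35.6 and 35.3 FPKM in control. It fell by 0.62 on the log2 scale with SFN (SE 0.0566, adjusted p = 5.56e-05) and by 0.51 with SFN+5-FU (SE 0.0566, adjusted p = 8.20e-05). It was the one tested gene in which SFN replicate 2 lay nearer to the mean of SFN replicates 1 and 3 than to the SFN+5-FU mean. BLVRB, the other gene named for a biliverdin reductase, encodes an enzyme that reduces flavins. BLVRB (ENSG00000090013) was at 23.3, 25.7 and 27.5 FPKM with SFN+5-FU, at 21.3, 25.2 and 20.7 FPKM with SFN, and at 21.6, 21.3 and 19.3 FPKM in control. SFN libraries overlapped control and SFN+5-FU libraries did not. Its log2 fold change with SFN was 0.11 (SE 0.0926, adjusted p = 0.366). It was 0.02 without SFN replicate 2 and -0.01 with quantile normalization. With SFN+5-FU it rose by 0.28 (SE 0.0926, adjusted p = 0.0223). The call was lost under median-of-ratios scaling, quantile normalization and rescaling without mitochondrial transcripts (adjusted p = 0.106, 0.299 and 0.0875), and without control replicate 3, SFN+5-FU replicate 2 or SFN+5-FU replicate 3 (adjusted p = 0.0795, 0.0621 and 0.0843, over alternatives from 0.00404). The ratio of BLVRA to BLVRB was 0.886 to 1.10 with SFN+5-FU and 0.905 to 1.11 with SFN, against 1.67 to 1.83 in control, without overlap between treated and control libraries.

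Genes for a heme transporter and a porphyrin transporter were also lower with treatment. SLC48A1 (ENSG00000211584), known as HRG1, moves heme out of endolysosomes. SLC48A1 was at 35.0, 31.9 and 33.7 FPKM with SFN+5-FU, at 31.3, 34.7 and 28.3 FPKM with SFN, and at 38.6, 40.6 and 38.9 FPKM in control, with no treated library in the control range. It fell by 0.32 on the log2 scale with SFN (SE 0.0786, adjusted p = 0.00860) and by 0.23 with SFN+5-FU (SE 0.0786, adjusted p = 0.0294). The second did not pass without the filter on low genes (adjusted p = 0.0566), nor without control replicate 1, 2 or 3 (adjusted p = 0.0592, 0.0942 and 0.0585) and without SFN+5-FU replicate 2 or 3 (0.104 and 0.0644, over alternatives from 0.00140). ABCB6 (ENSG00000115657), an ATP-binding cassette transporter of porphyrins, was at 2.97, 2.21 and 2.20 FPKM with SFN+5-FU, at 1.90, 2.51 and 2.82 FPKM with SFN, and at 3.42, 4.43 and 2.91 FPKM in control. SFN+5-FU replicate 1 lay within the control range. ABCB6 fell by 0.42 with SFN (SE 0.150, adjusted p = 0.0411) and by 0.40 with SFN+5-FU (SE 0.150, adjusted p = 0.0395). At this low level the pseudocount sets the size: with SFN and SFN+5-FU the values were -0.55 and -0.52 at a pseudocount of 0.1, and -0.21 and -0.20 at a pseudocount of 5. Both calls were lost without control replicate 1 (adjusted p = 0.0826 with SFN and 0.0736 with SFN+5-FU), control replicate 2 (0.147 and 0.146), SFN+5-FU replicate 2 (0.0553 and 0.117) or SFN+5-FU replicate 3 (0.0556 and 0.118), with no expression filter (0.101 and 0.0939), with quantile normalization (0.0559 and 0.0519) and with the replicate block (0.0651 and 0.0619). That with SFN was also lost without SFN replicate 1 (0.117) and in a fit of the 6 libraries compared (0.0652), and the adjusted p over alternatives began at 0.0248 with SFN and at 0.0107 with SFN+5-FU.

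**Figure D2:**
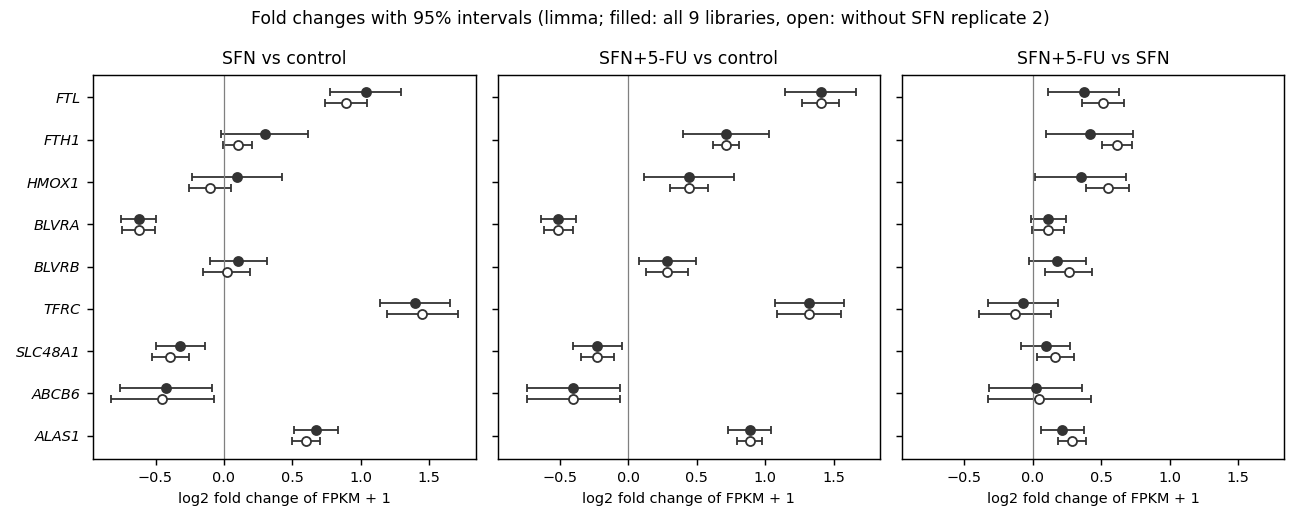
Log2 fold change of FPKM + 1 (horizontal axis) of the 9 tested genes in each comparison, with 95% intervals from limma; filled circles use all 9 libraries and open circles leave out SFN replicate 2. TFRC, FTL and ALAS1 lie to the right of 0 and BLVRA to the left in both comparisons with control, and the intervals for SFN+5-FU against SFN are narrower without SFN replicate 2 for FTH1 and HMOX1.

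SFN+5-FU was also set against SFN. The sulforaphane dose of the combined group is not given, so this comparison cannot isolate the effect of adding 5-fluorouracil. In limma none of the 9 genes passed, where 1 of all 12662 tested genes did (0.00790%). At an unadjusted p under 0.05, 4 of the 9 genes and 31.4% of all tested genes passed. The log2 fold changes were 0.37 for FTL (adjusted p = 0.134, 95% interval 0.11 to 0.63), 0.42 for FTH1 (0.134, 0.10 to 0.73), 0.35 for HMOX1 (0.146, 0.02 to 0.68) and 0.22 for ALAS1 (0.134, 0.06 to 0.37). TFRC and ABCB6 stood at -0.07 (95% interval -0.33 to 0.18) and 0.02 (-0.32 to 0.36). SFN replicate 2 lay nearer to the SFN+5-FU mean than to SFN replicates 1 and 3 in 8 of the 9 genes. Without that library 6 of the 9 genes passed, all of them higher with SFN+5-FU, where 29.8% of all tested genes were called higher and 51.2% were called in either direction. FTH1 then rose by 0.61 (adjusted p = 3.29e-05), HMOX1 by 0.55 (0.000267), FTL by 0.51 (0.000337), ALAS1 by 0.29 (0.000839), BLVRB by 0.26 (0.0182) and SLC48A1 by 0.17 (0.0466). BLVRA, TFRC and ABCB6 did not pass (0.11, -0.13 and 0.05). With library weights, which give less weight to libraries far from their group, 7 of the 9 passed, all higher with SFN+5-FU, beside 58.7% of all tested genes (33.4% higher and 25.3% lower).

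In order of level, FTL, FTH1 and ALAS1 were the 3 highest, in that order, in all 3 groups, and HMOX1, ABCB6 and SLC40A1 stood last. Between them in control came SLC48A1 (39.3 ± 1.08 FPKM, mean ± SD, n = 3), BLVRA (35.7 ± 0.365), BLVRB (20.7 ± 1.25) and TFRC (11.5 ± 1.42), and no neighbours overlapped. With SFN, TFRC (31.8 ± 3.72) stood beside SLC48A1 (31.4 ± 3.24), with overlapping libraries, and BLVRA (22.8 ± 0.940) overlapped BLVRB (22.4 ± 2.46). With SFN+5-FU, SLC48A1 (33.5 ± 1.55) and TFRC (30.2 ± 2.98) overlapped, as did TFRC and BLVRB (25.5 ± 2.09), and BLVRB and BLVRA (24.7 ± 0.818).

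Correlations between the genes over the 9 libraries are given as a description, since the libraries share their groups. FTL and ALAS1 correlated at 0.993 (Pearson, log2 scale), TFRC with ALAS1 at 0.925 and TFRC with BLVRA at -0.978. HMOX1 correlated with FTH1 at 0.933 and with BLVRB at 0.925, and with TFRC at 0.393. FTH1 correlated with FTL at 0.885, with BLVRB at 0.880 and with ALAS1 at 0.874. The largest correlation of ABCB6 in size was -0.753, with TFRC, and that of SLC40A1 was 0.269, with SLC48A1. Among all tested genes with a symbol, those most like FTL were ITM2C, TMEM205 and AUP1 (0.997 to 0.998), and those most like ALAS1 were EMG1, ITM2C and PNP (0.997 to 0.998). The genes most like TFRC were TIMM17A, CTPS1 and LRRC59 (0.996 to 0.997).

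**Figure D3:**
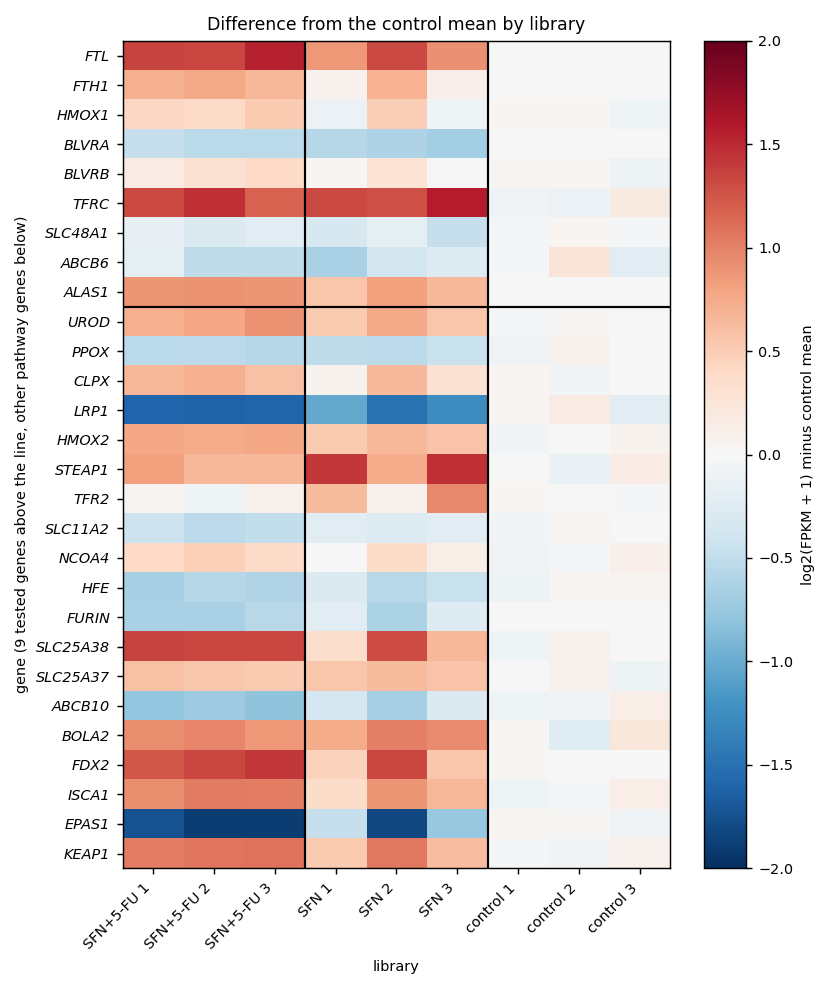
Log2(FPKM + 1) minus the control mean (colour) for the 9 tested genes above the horizontal line and for named pathway genes below it, in each library (columns). TFRC and BLVRA have like values in the 3 SFN libraries, while FTH1 and HMOX1 are near the control level in SFN 1 and SFN 3 and higher in SFN 2, as in the SFN+5-FU libraries.

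Other genes of the pathway also moved both ways. Of 77 further listed genes 62 were tested, of which 23 rose and 10 fell with SFN (median log2 fold change 0.03, and 0.05 over all tested genes) and 27 rose and 16 fell with SFN+5-FU (0.02, and 0.10 over all). The shares called in each direction over all genes were 27.5% higher and 22.5% lower with SFN, and 38.3% higher and 28.0% lower with SFN+5-FU. In heme synthesis after ALAS1, 1 of 8 genes rose and 3 fell with SFN, and 2 rose and 4 fell with SFN+5-FU. UROD, uroporphyrinogen decarboxylase, rose by 0.61 and 0.79 with SFN and SFN+5-FU, and PPOX, protoporphyrinogen oxidase, fell by 0.49 and 0.54. CLPX, a mitochondrial chaperone known to act on ALAS enzymes, rose by 0.66 with SFN+5-FU. The first and the later steps of heme synthesis did not share one direction.

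Among 7 other genes of heme transport and breakdown, 3 rose and 1 fell with SFN, and 3 rose and 2 fell with SFN+5-FU. Here and for the next lists, 27.5% of all tested genes were higher and 22.5% lower with SFN. With SFN+5-FU the shares were 38.3% higher and 28.0% lower. LRP1, an endocytic receptor that takes up hemopexin-bound heme, fell to 0.657 ± 0.0153 FPKM with SFN+5-FU and 1.12 ± 0.345 FPKM with SFN, against 4.06 ± 0.650 FPKM in control. Among 8 other genes of iron uptake and export, 2 rose and 2 fell with SFN, and 1 rose and 1 fell with SFN+5-FU. STEAP1, of the metalloreductase family, rose by 1.21 with SFN and 0.71 with SFN+5-FU, TFR2, a second transferrin receptor, rose by 0.56 with SFN, and SLC11A2, the iron importer DMT1, fell by 0.48 with SFN+5-FU. NCOA4, the receptor that delivers ferritin to lysosomes, had a log2 fold change of 0.16 with SFN (adjusted p = 0.179, and 0.06 without SFN replicate 2) and rose by 0.42 with SFN+5-FU (adjusted p = 0.00388). It was the 1 gene called among the 3 other genes of storage and release. Without SFN replicate 2, 2 of those 3 fell with SFN and 2 rose with SFN+5-FU, and 3 of the 8 uptake and export genes fell with SFN+5-FU. The shares of all tested genes in that setting were 26.9% lower with SFN, and 43.4% higher and 31.3% lower with SFN+5-FU. Between SFN+5-FU and SFN none of the 62 passed in limma (26 at an unadjusted p under 0.05, beside 31.4% of all tested genes). Without SFN replicate 2, 18 of the 62 were higher and 16 lower, beside 29.8% higher and 21.4% lower over all tested genes.

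Iron sensing showed 2 of 7 genes lower and none higher with SFN, beside 22.5% lower and 27.5% higher of all tested genes. With SFN+5-FU 3 of the 7 were lower and none higher, beside 28.0% lower and 38.3% higher of all tested genes. The fallen genes included HFE, a partner of the transferrin receptor (0.43 with SFN and 0.61 with SFN+5-FU), and the protease gene FURIN (0.37, or 0.24 without SFN replicate 2, and 0.62). The iron regulatory protein genes ACO1 (-0.04 with SFN and 0.11 with SFN+5-FU) and IREB2 (-0.06 and -0.20) and FBXL5 (-0.05 and -0.06), whose product marks IREB2 protein for degradation, did not pass in either comparison (adjusted p from 0.0667 to 0.696). Without SFN replicate 2, the values with SFN were -0.12 for ACO1 and -0.08 for FBXL5. BMP6, a ligand known to induce hepcidin in the liver, was not called with SFN in all 9 libraries (0.10, adjusted p = 0.751). It was called higher without SFN replicate 2 (0.42, adjusted p = 0.0170). BMP6 was picked after its values were seen, so that call is a description. Without the same library IREB2 passed with SFN+5-FU (adjusted p = 0.0484), and 5 of the 7 genes were lower there, beside 31.3% of all tested genes.

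Mitochondrial iron genes rose in 4 and fell in 1 of 8 cases with SFN, and rose in 6 and fell in 2 with SFN+5-FU. SLC25A38, a mitochondrial glycine carrier for heme synthesis, rose by 0.77 with SFN and by 1.34 with SFN+5-FU, and by 0.50 with SFN without SFN replicate 2. SLC25A37, the iron carrier mitoferrin-1, rose by 0.58 with SFN, and ABCB10, a transporter of the inner mitochondrial membrane, fell by 0.77 with SFN+5-FU. Iron-sulfur cluster assembly held 13 higher and 1 lower of 21 genes with SFN, and 14 higher and 4 lower with SFN+5-FU. Its median log2 fold changes were 0.31 and 0.53, beside 0.05 and 0.10 over all tested genes. For both lists, the shares over all tested genes were 27.5% higher and 22.5% lower with SFN. With SFN+5-FU they were 38.3% higher and 28.0% lower. The ferredoxin gene FDX2 rose by 0.79 and 1.33 with SFN and SFN+5-FU, and by 0.51 with SFN without SFN replicate 2. BOLA2 rose by 0.90 with SFN, although it has a near-identical copy, and ISCA1 by 0.99 with SFN+5-FU.

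**Figure D4:**
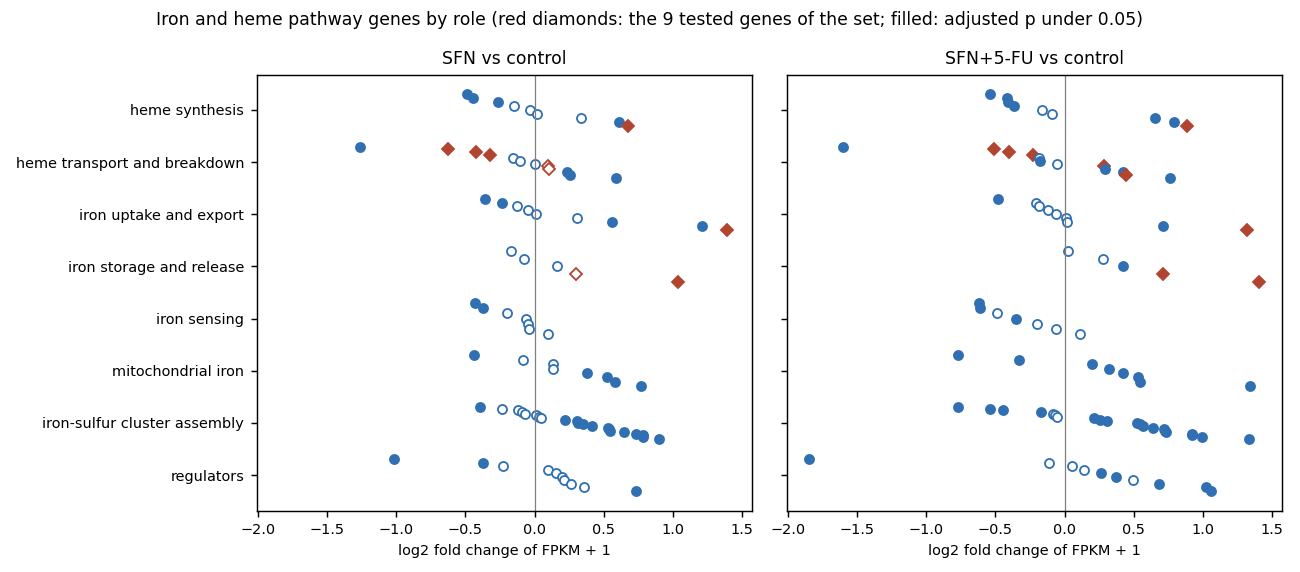
Log2 fold change of FPKM + 1 (horizontal axis) of each tested gene, by pathway role (rows), for SFN against control (left) and SFN+5-FU against control (right). Red diamonds are the 9 tested genes and blue circles the other listed genes, filled where called; FTL and TFRC lie farthest to the right in their rows.

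The regulators known to act on these genes were read as transcripts alone. KEAP1, which holds NRF2 down, rose by 0.73 with SFN (adjusted p = 0.00127) and by 1.06 with SFN+5-FU (adjusted p = 0.000108). NFE2L2, which encodes NRF2, was at 8.60, 8.89 and 7.84 FPKM with SFN+5-FU, at 4.32, 8.54 and 5.07 FPKM with SFN, and at 5.15, 4.36 and 5.16 FPKM in control. It had a log2 fold change of 0.20 with SFN (adjusted p = 0.392, and -0.05 without SFN replicate 2) and rose by 0.68 with SFN+5-FU (adjusted p = 0.00962). SFN replicate 2 lay among the SFN+5-FU libraries for NFE2L2. It did so for EPAS1 as well (21.2 FPKM, against 20.2 to 22.6 FPKM with SFN+5-FU), and it correlated at 0.993 with those libraries across tested genes. A link of NFE2L2 to FTH1 and HMOX1 was not tested. BACH1 had log2 fold changes of 0.35 with SFN (adjusted p = 0.0880) and 0.06 with SFN+5-FU (adjusted p = 0.766). Without SFN replicate 2 BACH1 rose by 0.52 with SFN (adjusted p = 0.00535). HIF1A did not pass in either (0.10 and 0.14, adjusted p = 0.397 and 0.201), and EPAS1, which encodes HIF-2α, fell by 1.01 with SFN (it fell by 0.61 without SFN replicate 2) and fell by 1.84 with SFN+5-FU.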

How the data were processed

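The deposited values are gene-level FPKM, made by the authors with fastp and StringTie per the submitters' processing notes. No source used here gives the aligner, the build or the annotation. Libraries were poly(A)-selected, dUTP-marked and paired-end, per the labels' protocols. Of 41041 identifiers 41002 matched the name table. Genes with a mean of at least 1 FPKM over the 9 libraries (12662) entered one limma fit on log2(FPKM + 1) whose variance followed mean expression (residual degrees of freedom 6, prior 3.2), with 3 two-sided contrasts and Benjamini-Hochberg adjustment over all tested genes in each. SE and 95% intervals use the moderated variance, and the pseudocount of 1 shrinks changes of low genes. The script was tested on simulated data. Depth is unknown, so counting error is not given.

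The 10 genes and the lists were chosen with earlier results of these data known. Named list genes are, per list and comparison, the 2 called with the largest change, plus 9 regulators in any case. HMOX2, ALAS2 and CEACAM5 are named where a result or the marker check turns on them. BMP6 and STEAP2 were named after their values were seen. Likeness is Pearson's r over the 9 libraries. The genes most like HMOX1 are not reported here. The alternatives varied the pseudocount, filter, scaling, variance trend, library weights, GC and length correction (GENCODE 29, 98.8% of tested genes), libraries and replicate block. Replicate numbers were not taken as pairs. R 4.3.3, limma 3.58.1, Python 3.11.15 and matplotlib 3.10.9 were used.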

Additional observations from a re-analysis of the deposited data

How the results depend on the processing

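Against control, FTL, TFRC, ALAS1 and BLVRA in both comparisons, SLC48A1 with SFN and FTH1 with SFN+5-FU kept direction and call under all 21 alternatives run. The number of the 9 genes called was 5 to 6 with SFN and 5 to 9 with SFN+5-FU when 1 library was left out, beside 4845 to 7200 and 7287 to 9461 of all 12662 genes tested. Between SFN+5-FU and SFN it was 0 to 6 when 1 library was left out and 7 with library weights. The other 62 pathway genes gave 0 to 34 calls there and 37 with library weights. Over all genes, a mean filter of 5 FPKM gave 3888 calls with SFN and 4903 with SFN+5-FU, from fewer genes tested. For SFN+5-FU against SFN, all-gene calls were 7432 with library weights, 0 with only the 6 libraries compared, 0 with the replicate block and 0 to 6478 when 1 library was left out. Signs turned for uncalled values alone. With SFN, HMOX1 was -0.10 with library weights and -0.10 without SFN replicate 2, in a range to 0.20 when 1 library was left out, and BLVRB was -0.012 with quantile normalization and -0.019 with library weights. Between SFN+5-FU and SFN, TFRC was 0.020 without SFN replicate 3. ABCB6 was -0.0067 with median-of-ratios scaling, -0.0012 without mitochondrial transcripts, -0.074 with library weights, -0.022 with the GC and length correction, -0.089 without SFN replicate 1 and -0.08 without SFN+5-FU replicate 1. The log2 ratio of FTL to FTH1 was 0.015 without SFN+5-FU replicate 2, in a range from -0.14. The cause of these turns was not tested. The share of called genes that were higher with SFN was 54.9%, and 47.4% with median-of-ratios scaling, 46.6% without mitochondrial transcripts and 46.4% with no filter, and with SFN+5-FU 57.8%, and 49.5% with median-of-ratios scaling.

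Libraries with the same replicate number deviated from their group means with correlations of -0.14 to 0.11 over 9 pairs, above 0.1 in 1 of them. With the replicate block the ABCB6 calls were lost (adjusted p = 0.0651 with SFN and 0.0619 with SFN+5-FU), and no other call of the 9 genes changed. FPKM keeps no depth, so a gene as low as SLC40A1 cannot be judged.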

Other observations

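Some iron genes stood higher in SFN replicates 1 and 3 than in SFN replicate 2, the SFN+5-FU libraries and control. They were picked after their values were seen, so no test of this pattern is given. The calls printed above for TFR2, STEAP1 and BMP6 come from the limma comparisons with control and do not test it. TFR2, a second transferrin receptor, was at 0.92, 0.75 and 0.96 FPKM with SFN+5-FU, at 1.87, 0.96 and 2.59 FPKM with SFN replicates 1, 2 and 3, and at 0.91, 0.84 and 0.80 FPKM in control. STEAP2, a metalloreductase, was at 1.78, 1.44 and 1.43 FPKM with SFN+5-FU, at 2.94, 1.85 and 3.24 FPKM with SFN, and at 2.01, 1.94 and 1.86 FPKM in control. BMP6, known in the liver as an inducer of the iron hormone hepcidin, was at 1.99, 1.51 and 1.59 FPKM with SFN+5-FU, at 3.85, 1.59 and 4.25 FPKM with SFN, and at 2.74, 3.35 and 2.30 FPKM in control. STEAP1 was at 20.8, 18.2 and 18.5 FPKM with SFN+5-FU, at 31.7, 19.7 and 32.9 FPKM with SFN, and at 11.2, 10.3 and 12.6 FPKM in control, so its SFN replicate 2 lay among the SFN+5-FU libraries, above control.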
